A study of Mus musculus with 6 samples.

Results

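The 9 receptors described here carry the noradrenergic, peptidergic and purinergic inputs to secretion in the submandibular gland (SMG), a major salivary gland. They are the adrenergic receptors Adra1a, Adra1b and Adrb1, the peptide receptors Vipr1, Vipr2 and Tacr1, and the nucleotide receptors P2rx4, P2rx7 and P2ry2. They were taken by name from the unfiltered table of raw counts, in which all 9 had a row among 43280 rows. RNA was sequenced from the SMG of adult female mice on a C57BL/6 background, with 3 libraries labelled WT and 3 labelled DKO, each group numbered 1, 4 and 5. The DKO mice carry, as germline alleles, a frameshift deletion in the first exon of Hs3st3a1 together with an Hs3st3b1 allele interrupted by a LacZ cassette, and the WT mice were littermates with neither. Both genes encode enzymes that add 3-O-sulfate to heparan sulfate chains. Several founder lines of the deletion were made in the study, and which line and which age in weeks these libraries came from is not given in the sources used here. The comparison asked whether the receptors that drive secretion differ in RNA level between the genotypes.

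Salivary secretion is driven by nerves. Parasympathetic fibres release acetylcholine, which acts through muscarinic receptors on acinar cells to raise calcium and drive fluid, and vasoactive intestinal peptide (VIP), which raises cAMP. Sympathetic fibres release noradrenaline, which acts through beta receptors coupled to Gs and cAMP to release stored protein and through alpha-1 receptors coupled to Gq and calcium. Extracellular ATP opens the P2X ion channels and activates the P2Y receptors, and adds to the calcium signal of salivary cells.

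The libraries held between 23674258 and 29611975 counts. Counts for the targeted genes did not separate the groups, with 11 to 15 counts of Hs3st3a1 in the WT-labelled libraries against 8 to 13 in the DKO-labelled ones, and 173 to 261 against 120 to 255 of Hs3st3b1, so the groups are named by their labels throughout. Counts per gene show neither a short deletion nor where in a gene the reads lie, so they do not test the genotypes. Acinar genes marked the tissue, with Lpo between 15112 and 29725 counts and Aqp5 between 4447 and 7808 counts per library, and the granular duct gene Klk1 had 142648 to 204126. A pair of libraries stood apart. The sublingual mucin gene Muc19 had 62150 counts in WT 5 and 3906 in DKO 1, against 27 to 120 in the other 4 libraries, and Bpifa2, a gene of the neighbouring parotid and sublingual glands, had 88122 and 3632 counts against 70 to 105. These libraries were also the lowest for Ren1, a granular duct gene, with 93 and 119 counts against 11964 to 49381. The calls, the list medians and the differences of the receptors were therefore also computed without these libraries. What set them apart was not tested. In whole gland, fewer cells of a type and less RNA per cell cannot be told apart, and the p-values measure the spread between glands as labelled.

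The 9 receptors fell into 5 that were well counted and 4 that were near or below detection. Per kilobase of exon, P2rx4 stood highest at 12.5 ± 0.519 CPM per kilobase (counts scaled to the library total, SD over 6 libraries), above 93.0% of the 17301 tested genes with an annotated length. Adrb1 followed at 7.66 ± 0.529 and Adra1a at 5.88 ± 1.31, above 87.2% and 82.3% of these genes. P2rx7 was at 4.56 ± 0.626 and Vipr1 at 1.53 ± 0.411, the latter near the middle of all genes (50.2% below it). The order of these 5 was the same in 6 of 6 libraries, although over libraries the ranges of Adrb1 and Adra1a overlapped, as did those of Adra1a and P2rx7. The order of Adrb1 and Adra1a rested on the length used. Adra1a had more counts than Adrb1 in every library, and stood above it when the longest transcript (4282 bp against 2952 bp) took the place of all annotated exons together (8728 bp against 3382 bp). The other 7 ranks were the same with either length.

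The remaining receptors gave few reads. P2ry2 was at 0.152 ± 0.0203, Adra1b at 0.0979 ± 0.0322 and Vipr2 at 0.0717 ± 0.0189 CPM per kilobase, with 5 to 19 counts per library over the 3 genes. P2ry2 lay above Adra1b in 6 of 6 libraries, and Adra1b above Vipr2 in 4 of 6. Tacr1, the substance P receptor, had 1 count in WT 1, 1 in DKO 1 and 0 in the other 4 libraries. A count of 0 allows up to 3 counts, or 0.101 to 0.127 CPM depending on the library, and this limit covers counting error only. Tacr1 was left out of the test, which required 10 counts over the 6 libraries, so 8 of the 9 receptors were tested. The muscarinic receptor Chrm3, the main receptor for acetylcholine on acinar cells, had a mean between those of Adra1a and P2rx7, at 5.79 ± 0.544. In WT 1, 4 and 5 it lay below Adra1a (5.59, 6.10 and 5.91 against 6.81, 7.13 and 6.65). In DKO 1, 4 and 5 it lay above Adra1a (6.49, 4.87 and 5.82 against 5.81, 3.59 and 5.30). This change of order was not tested.

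**Figure D1:**
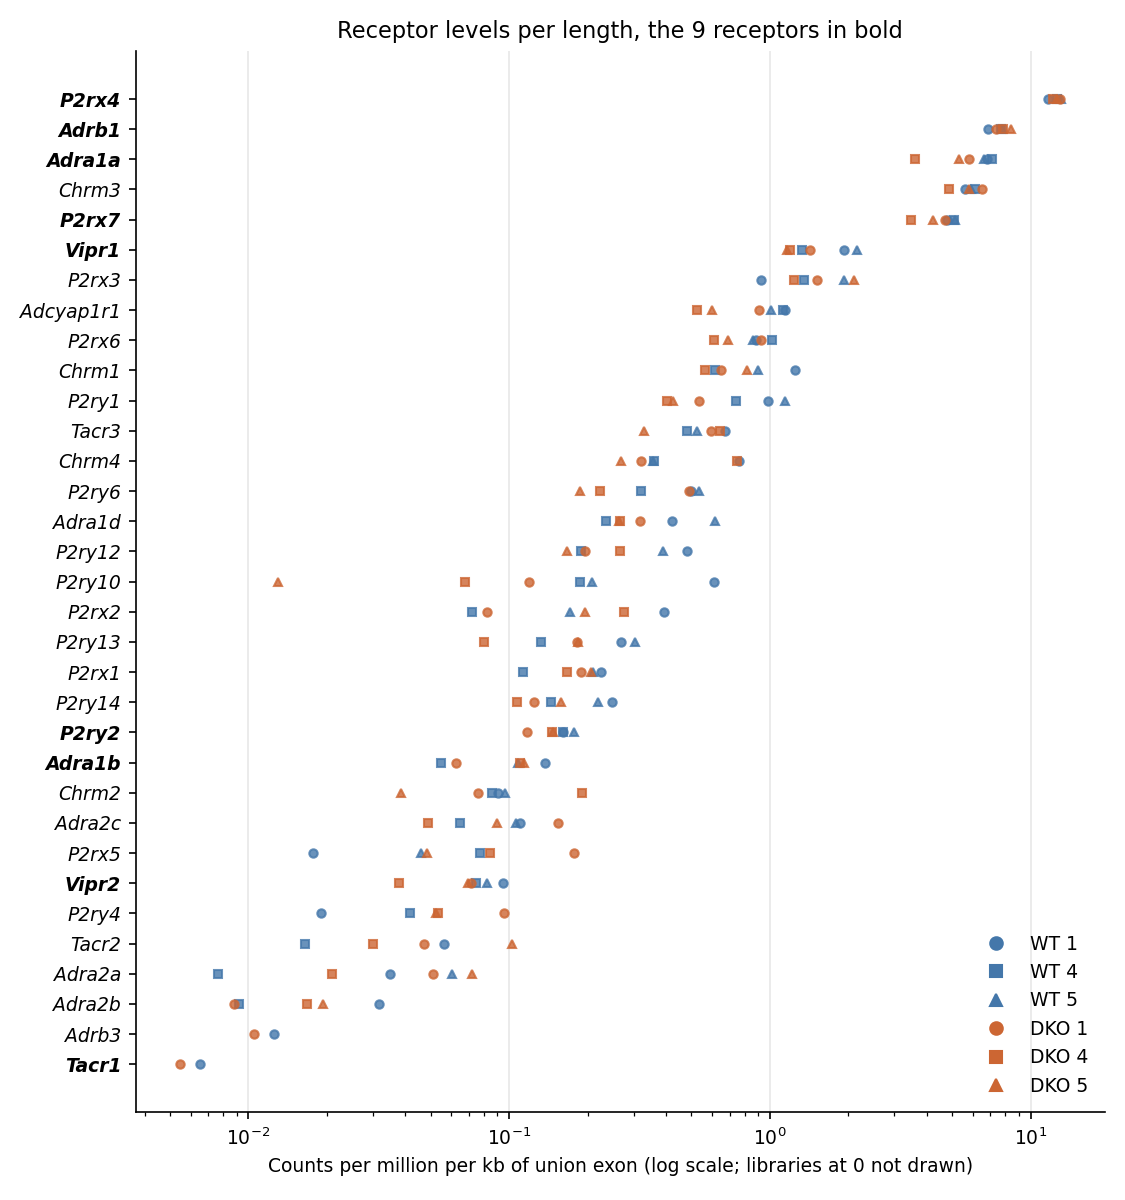
Levels of the 9 receptors (bold) and of other adrenergic, peptide, purinergic and muscarinic receptors, in CPM per kilobase of exon on a log axis, with 1 point per library and libraries at 0 not drawn. P2rx4 is highest at a mean of 12.5, Vipr1 is at 1.53, and P2ry2, Adra1b, Vipr2 and Tacr1 lie at 0.152 or below.

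None of the 8 receptors tested differed between the groups at an adjusted p-value under 0.05 (DESeq2, two-sided Wald test on 18606 genes, adjusted over the 16050 that passed its filters), where 2.9% of all genes tested did, 1.02% higher and 1.88% lower. At an unadjusted p-value under 0.05, 2 of the 8 were higher in the DKO-labelled libraries, P2rx4 and Adrb1, where 12.2% of all genes were at that level and 4.92% were higher. None was lower at that level, where 7.26% of all genes were. The groups did not overlap for 2 of the 8, P2rx4 and Adra1a, as for 20.3% of all genes, 9.85% higher and 10.5% lower. These shares are also the background for genes of the lists named below as without overlap. With edgeR and with limma-voom 0 receptors were called as well. These methods called only 10 and 7 genes in all, so their 0 adds little. The same limit holds wherever they are named below. Fold changes are of the DKO-labelled over the WT-labelled libraries, and normalized counts are counts divided by the DESeq2 size factor of each library. The median log2 fold change of the 8 was -0.05, against 0.0011 for all genes. With 1 library left out it ranged from -0.11 to 0.015, so its sign was not stable. The 95% intervals of the 5 well-counted receptors all lay within a 2-fold change in either direction, whereas those of Adra1b, Vipr2 and P2ry2 reached beyond it. These intervals are not adjusted for the number of genes. Some markers of cells that may carry these receptors differed between the groups, while the sums over each whole list overlapped. Of 7 acinar markers 2 were called higher (Aqp5 and Agr2), with a summed level of 26462 to 50637 normalized counts in the WT-labelled libraries and 31933 to 46741 in the DKO-labelled ones. The highest WT sum was that of WT 5, where Smr3a, Dcpp1 and Dcpp2 made up 26977 of it, and the other 4 acinar markers summed to 23660 to 29263 against 30489 to 46681, without overlap. Of 7 granular duct markers 5 were called lower, with sums of 225063 to 320860 and 228610 to 320211. Most of these counts were those of Klk1, which was not called (127764 to 184476 against 177278 to 235348). Ren1, also not called, ran from 83.3 to 48304 against 113 to 23570, and was lowest in WT 5 and DKO 1. The 5 called genes summed to 84334 to 97216 against 46011 to 61293. These parts of the lists were taken after the values were seen, so sums that do not overlap follow from the choice of genes. The part of these cells in the receptor values was not tested.

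Among the adrenergic receptors, Adra1a and Adrb1 had log2 fold changes of opposite sign, and neither was called. Adra1a encodes the alpha-1A receptor, which couples to Gq and calcium, and lies on chromosome 14 (66635251 to 66771168, plus strand, GRCm38). It was measured at 1392, 1641 and 1420 normalized counts in WT 1, 4 and 5, against 1361, 971 and 1378 in DKO 1, 4 and 5. The groups did not overlap, but WT 1 and DKO 5 lay almost level, and DKO 4 lay far below the other 5 libraries. Its mean was 1484 ± 137 against 1236 ± 230 normalized counts (SD, n = 3), a log2 fold change of -0.26 (DESeq2 adjusted p = 0.431, SE 0.15, 95% interval -0.55 to 0.02). Without DKO 4 the log2 fold change was -0.12. No overlap in this direction was seen for 10.5% of all genes. Scaling by total counts, which moved the median of all genes to -0.23, was the only setting that called a receptor, with Adra1a at -0.49 (DESeq2 adjusted p = 0.0337).

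Adrb1 encodes the beta-1 receptor, the main beta receptor for protein secretion from salivary acini, and lies on chromosome 19 (56722199 to 56733113, plus strand). It had 542, 690 and 641 normalized counts in the WT-labelled libraries and 669, 819 and 851 in the DKO-labelled ones. DKO 4 and DKO 5 lay above all 3 WT libraries, while DKO 1 fell below WT 4. The log2 fold change was 0.32 (DESeq2 adjusted p = 0.250, SE 0.14, 95% interval 0.04 to 0.60), from 624 ± 75.1 to 780 ± 97.3 normalized counts. It was 0.44 without WT 5 and DKO 1, with an adjusted p-value of 0.407 in that DESeq2 fit, and 0.08 with total counts as the scale.

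Adra1b, the alpha-1B receptor (minus strand of chromosome 11, 43774606 to 43901210), was read 11, 5 and 10 times in WT 1, 4 and 5 and 6, 11 and 10 times in DKO 1, 4 and 5. These groups overlapped fully, and the interval of the log2 fold change ran from -1.22 to 1.64, so a change of 2-fold either way was not detectable at this depth. Adra1a held 98.1% ± 0.807 of the counts of the alpha-1 family (Adra1a, Adra1b and Adra1d) in the WT-labelled libraries and 97.9% ± 0.592 in the DKO-labelled ones (SD, n = 3, two-sided exact permutation p = 0.9). The proportion of Adrb1 in the counts of Adrb1 and Adra1a together, a ratio within a library that no scaling can alter, was examined after the values were seen. It was 28.0%, 29.6% and 31.1% in WT 1, 4 and 5 and 33.0%, 45.8% and 38.2% in DKO 1, 4 and 5. The groups did not overlap, and the exact permutation p of 0.1 is the smallest that 3 libraries against 3 can give.

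**Figure D2:**
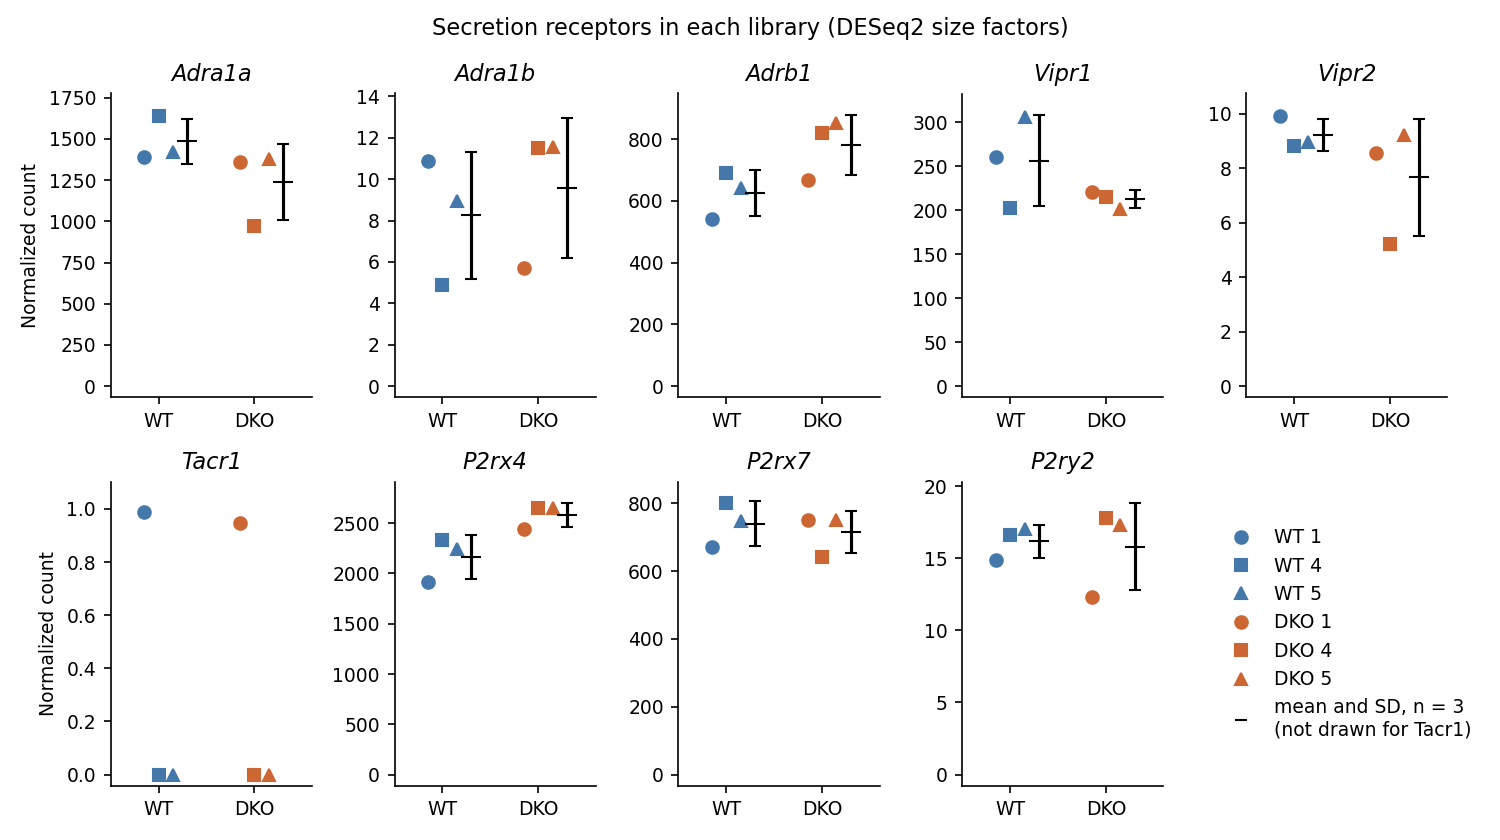
Normalized counts of each receptor in each library, with group mean and SD (n = 3, not drawn for Tacr1) and a linear axis that includes 0 for each gene. P2rx4 is higher in all 3 DKO libraries than in any WT library, Adra1a is lower with DKO 4 at 971, and the other receptors overlap.

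The peptide receptors showed no difference beyond the spread of the libraries. Vipr1 encodes the VPAC1 receptor for VIP, which couples to Gs and cAMP, and lies on chromosome 9 (121642716 to 121672954, plus strand). It was measured at 261, 203 and 306 normalized counts in WT 1, 4 and 5, against 221, 215 and 202 in DKO 1, 4 and 5. All 3 DKO values lay close together, near the lowest WT library, and the spread was among the WT libraries. The log2 fold change was -0.27 (DESeq2 adjusted p = 0.604, SE 0.19, 95% interval -0.64 to 0.10), and it was -0.12 without WT 5. Vipr2, the VPAC2 receptor (chromosome 12, 116077726 to 116146261, plus strand), had 10, 9 and 10 counts against 9, 5 and 8, with an interval from -1.67 to 1.13. Vipr1 made up 96.4% ± 0.668 and 96.5% ± 1.02 of the counts of both (exact permutation p = 1). The related receptor Adcyap1r1, which binds PACAP, had 178 ± 15.9 against 129 ± 28.5 normalized counts with no overlap (DESeq2 adjusted p = 0.279, log2 fold change -0.46, SE 0.21).

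Transcripts of the ligand VIP varied far more than those of its receptors. Vip was read 16, 15 and 3 times in WT 1, 4 and 5 and 36, 112 and 3 times in DKO 1, 4 and 5. DKO 4 held most of these reads, and the groups overlapped (DESeq2 adjusted p = 0.483, log2 fold change 2.22, SE 1.31). The DESeq2 fit without DKO 5 did call Vip, the only gene of the ligand list called in that fit. DKO 4 was also highest for the neuronal genes Tubb3 (101 counts against 3 to 41 in the others), Uchl1 (96 against 6 to 38), Prph (53 against 5 to 31) and Chat (14 against 0 to 8), the last encoding the enzyme that makes acetylcholine. Over the whole list of 9 nerve and Schwann cell markers 0 were called by DESeq2, and 0 were at an unadjusted p-value under 0.05, and their summed normalized counts ranged from 1988 to 2177 in the WT-labelled libraries and from 1994 to 2297 in the DKO-labelled ones. Sox10 and Mbp made up most of this sum, at 1118 to 1246 and 615 to 694 normalized counts per library. The sum therefore says little about the neuronal genes. The part of nerve and Schwann cells in the Vip values was not tested. Th and Dbh, which encode enzymes of noradrenaline synthesis, had at most 1 and 8 counts per library. Dbh had 0 counts in all 3 WT libraries and 3, 8 and 0 in DKO 1, 4 and 5.

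Of P2rx4, P2rx7 and P2ry2, P2rx4 had the most reads and was the one whose groups separated, though it was not called. It encodes a channel opened by ATP and lies on chromosome 5 (122707544 to 122729738, plus strand). It was measured at 1918, 2336 and 2243 normalized counts in WT 1, 4 and 5, against 2442, 2655 and 2652 in DKO 1, 4 and 5. Every DKO library stood above every WT library, as was seen for 9.85% of all genes in this direction. The mean was 2165 ± 219 against 2583 ± 122 normalized counts (SD, n = 3), a log2 fold change of 0.25 (DESeq2 adjusted p = 0.201, SE 0.11, 95% interval 0.05 to 0.46). It was 0.32 without WT 5 and DKO 1 and 0.17 without WT 1. With total counts as the scale it was 0.02.

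P2rx7 encodes a second ATP-gated channel that needs higher ATP to open, and lies 16.1 kb from P2rx4 on the same strand of chromosome 5 (122643911 to 122691432). It had 671, 801 and 749 normalized counts in the WT-labelled libraries and 750.5, 643 and 749 in the DKO-labelled ones. The groups overlapped throughout, and the log2 fold change was -0.05 (DESeq2 adjusted p = 0.936, SE 0.13, 95% interval -0.30 to 0.19). The P2rx4 share of the counts of both channels was 74.1%, 74.5% and 75.0% in WT 1, 4 and 5 and 76.5%, 80.5% and 78.0% in DKO 1, 4 and 5. It was thus higher in every DKO library, 78.3% ± 2.03 against 74.5% ± 0.445 (SD, n = 3), with an exact permutation p of 0.1, again the smallest possible. P2ry2, a receptor for ATP and UTP coupled to Gq (minus strand of chromosome 7, 100996568 to 101012866), gave 15, 17 and 19 counts against 13, 17 and 15. Its interval ran from -1.07 to 0.99.

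**Figure D3:**
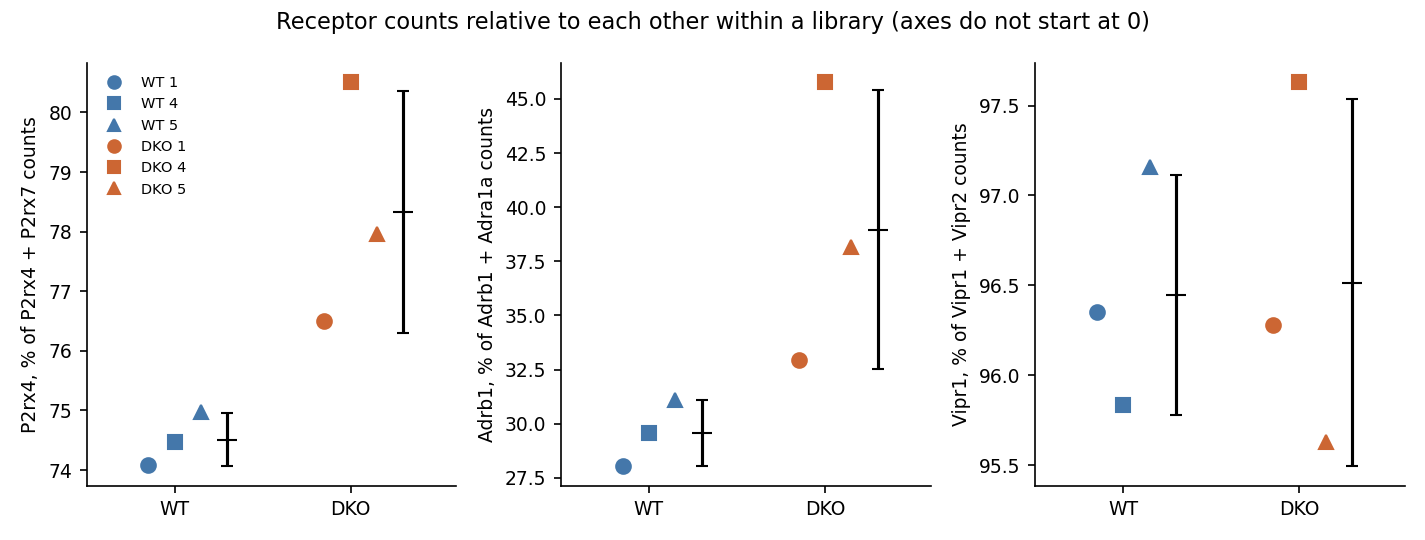
Share of one receptor in the counts of a pair, in percent per library, with group mean and SD (n = 3) and axes that do not start at 0. The P2rx4 and the Adrb1 shares are higher in all 3 DKO libraries, at 78.3% against 74.5% and 39.0% against 29.6% on average, while the Vipr1 share overlaps.

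Among 26 other receptors of these families, 23 were tested and 1 was called, P2ry1, where 2.9% of all genes were called. Adra2b, Adrb3 and Chrm5 had under 10 counts in all, and Chrm5 had 0. P2ry1 encodes an ADP receptor coupled to Gq. It was measured at 99.0, 84.1 and 120 normalized counts in WT 1, 4 and 5, against 61.7, 53.3 and 54.2 in DKO 1, 4 and 5. All DKO libraries were lower, by -0.84 on the log2 scale (DESeq2 adjusted p = 0.0475, SE 0.27). This call was lost in 10 of 17 alternatives, among them edgeR, limma-voom and the fits without WT 1, WT 5, DKO 1, DKO 4 or DKO 5 (adjusted p from 0.0633 to 0.428 in those 5 DESeq2 fits). P2ry10, a receptor of lymphocytes, had 42.6, 14.7 and 15.2 normalized counts against 9.49, 6.27 and 1.15 (DESeq2 adjusted p = 0.0983, log2 fold change -2.07, SE 0.74). Of 6 T cell markers 4 were called lower, and their summed normalized counts were 34.2 to 213 in the WT-labelled libraries and 4.61 to 12.3 in the DKO-labelled ones, with Cd8a at 0 in all 3 of the latter. The part of these cells in the P2ry10 values was not tested. Neither of the main muscarinic receptors was called, with log2 fold changes of 0.19 (SE 0.12) for Chrm3 and -0.19 (SE 0.26) for Chrm1 (DESeq2 adjusted p = 0.549 and 0.860).

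**Figure D4:**
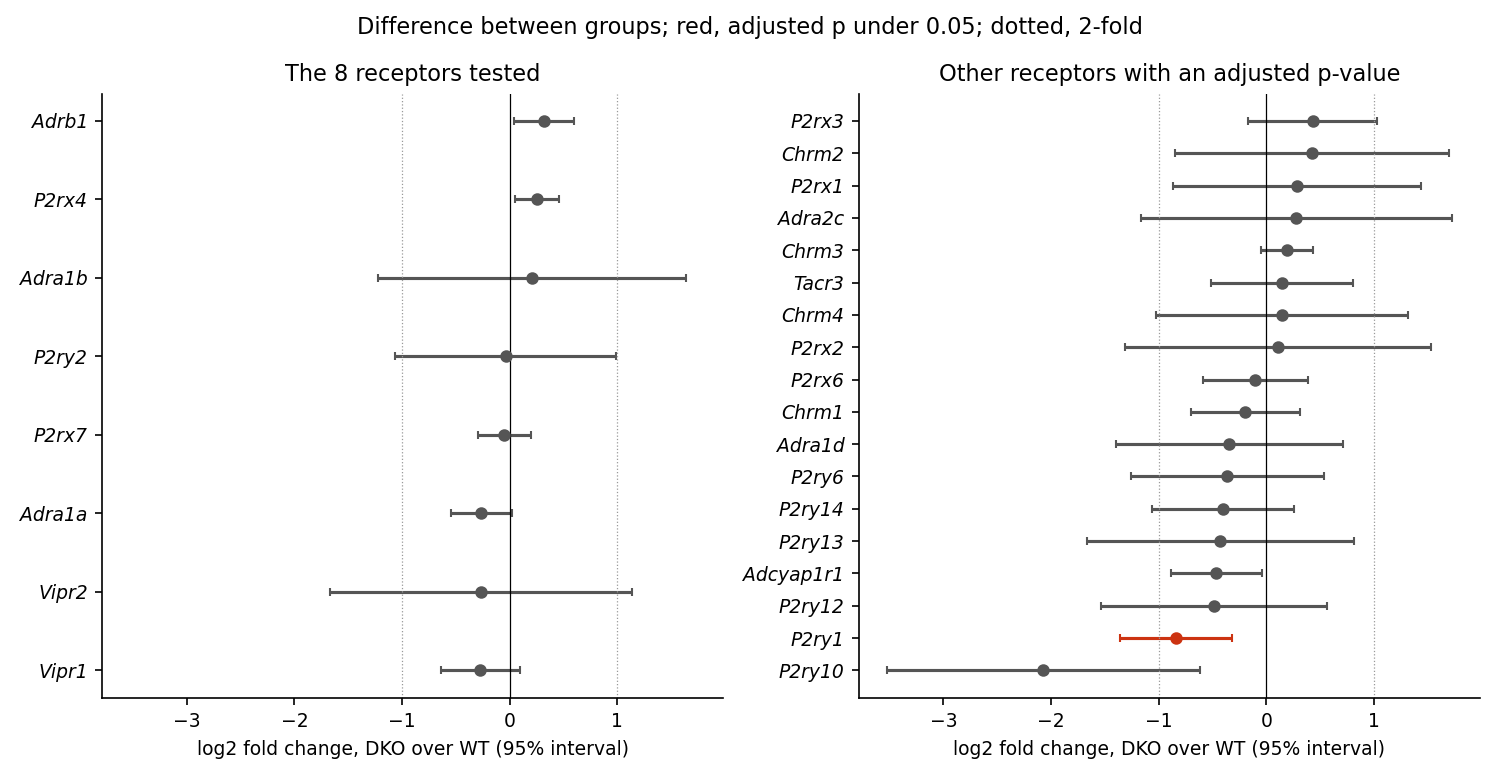
Log2 fold changes of the libraries labelled DKO over WT with 95% intervals, for the 8 receptors tested (left) and for other receptors with an adjusted p-value (right), where dotted lines mark a 2-fold change. P2ry1 (red) is the only receptor with a DESeq2 adjusted p-value under 0.05, at -0.84, and the intervals of Adrb1 and P2rx4 lie just above 0.

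The genes that make, release or break down the ligands held 2 calls among 17 tested, where 2.9% of all genes were called. Slc17a9 encodes the transporter that loads ATP into vesicles. It had 271, 303 and 249 normalized counts in the WT-labelled libraries and 352, 413 and 383 in the DKO-labelled ones, and every DKO library was higher (DESeq2 adjusted p = 0.0448, log2 fold change 0.48, SE 0.15). Mme encodes neprilysin, a surface peptidase that cleaves substance P and other peptides. It had 1906, 1740 and 1587 normalized counts against 1319, 1325 and 1263, lower in every DKO library (DESeq2 adjusted p = 0.00541, log2 fold change -0.42, SE 0.11). The call of Slc17a9 was lost in 10 of 17 alternatives and that of Mme in 5, edgeR and limma-voom included for both. With 1 library left out, Slc17a9 lost it without WT 1, WT 5, DKO 4 or DKO 5 (DESeq2 adjusted p = 0.257, 0.357, 0.215 and 0.211) and Mme without WT 1 or DKO 5 (0.110 and 0.0847). Mme is also expressed by myoepithelial cells, of whose 7 tested markers 6 were called lower, with a summed level of 10168 to 10994 normalized counts in the WT-labelled libraries and 5560 to 7362 in the DKO-labelled ones. Their part in the Mme values was not tested.

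Other genes of this group had an unadjusted p-value under 0.05 only, with DESeq2 size factors and all 6 libraries. The peptidase Dpp4 and the nucleotidase Entpd3 had log2 fold changes of 0.35 and 0.31, and the ectonucleotidases Entpd1 and Nt5e, which break down ATP and AMP outside the cell, had -0.38 and -0.79 (DESeq2 adjusted p from 0.0868 to 0.230 over the 4 genes). Dbh was at that level as well, and DESeq2 gave it no adjusted p-value. Among the alternatives, the fit without WT 4 called Dpp4 and Entpd3, and total counts as size factors called Entpd1 and Nt5e.

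In the signal paths below the receptors few genes were called. Of 19 genes of the Gs and cAMP path 1 was called, where 2.9% of all genes were. This was Adcy7, an adenylyl cyclase of immune cells among others. It was measured at 504, 294 and 500 normalized counts in WT 1, 4 and 5, against 269, 204 and 176 in DKO 1, 4 and 5 (DESeq2 adjusted p = 0.00166, log2 fold change -0.998, SE 0.23), and the call was lost in 6 of 17 alternatives, among them the DESeq2 fits without WT 1, WT 5, DKO 4 or DKO 5 (adjusted p = 0.0978, 0.107, 0.0586 and 0.0749). WT 4 was the lowest of its group for Adcy7 and also for the summed macrophage markers, which were 1866 to 2960 normalized counts in the WT-labelled libraries and 1327 to 1819 in the DKO-labelled ones, with 4 of 7 called lower and 0 of 7 at 0 counts. The part of these cells in the Adcy7 values was not tested. Adcy6, the highest per length of the 9 cyclases, had 4424 ± 311 and 5219 ± 222 normalized counts (DESeq2 adjusted p = 0.142, log2 fold change 0.24, SE 0.09). Adcy3 and Rapgef4 had log2 fold changes of -0.53 and -0.82, and Prkar2b and Rapgef3 of 0.29 and 0.27, none of them called. Without WT 1 the values of Rapgef4, Prkar2b and Rapgef3 were -0.35, 0.20 and 0.17, without WT 4 that of Rapgef3 was 0.41, and without DKO 5 that of Prkar2b was 0.18.

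Of 21 genes of the Gq and calcium path 0 were called by DESeq2, edgeR or limma-voom, and 5 had an unadjusted DESeq2 p-value under 0.05, where 12.2% of all genes did. Itpr1, a calcium release channel, had 4980 ± 72.7 against 4164 ± 311 normalized counts (DESeq2 adjusted p = 0.0879, log2 fold change -0.26, SE 0.09). Atp2a3, the calcium pump SERCA3, had 32754 ± 3488 against 38784 ± 3144 (DESeq2 adjusted p = 0.242, log2 fold change 0.24, SE 0.11). The phospholipases Plcb1 and Plcb3 had log2 fold changes of -0.38 and 0.23, and Prkcb, a protein kinase C found in immune cells, had -0.77 (DESeq2 adjusted p = 0.0573).

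Of 15 genes that end receptor signals 1 was called, where 2.9% of all genes were. Pde3b, a phosphodiesterase that breaks down cAMP, had 211, 96.8 and 159 normalized counts in the WT-labelled libraries and 361, 227 and 540 in the DKO-labelled ones. All DKO libraries were higher, although DKO 4 exceeded WT 1 narrowly (DESeq2 adjusted p = 0.00314, log2 fold change 1.27, SE 0.30), and the call was lost in 7 of 17 alternatives, among them the DESeq2 fits without WT 5, DKO 1 or DKO 5 (adjusted p = 0.478, 0.229 and 0.196). Pde3a and Pde4b had log2 fold changes of 0.37 and -0.28 and were not called. The receptor kinases and arrestins held 0 calls by DESeq2, edgeR or limma-voom and 0 at an unadjusted DESeq2 p-value under 0.05. Over the 99 genes of these 5 lists, 95 were tested and 5 were called, which is 5.26% against 2.9% of all genes. The median log2 fold changes of the lists lay between -0.01 and 0.24, that of the ligand list including genes with few counts. They were not stable, since the median of the ligand list was -0.32 without DKO 4, and that of the other receptors was -0.11 without DKO 4, -0.02 without WT 5 and -0.01 without DKO 1. The medians of the Gq and desensitization lists, both near 0, also changed sign with 1 library left out.

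**Figure D5:**
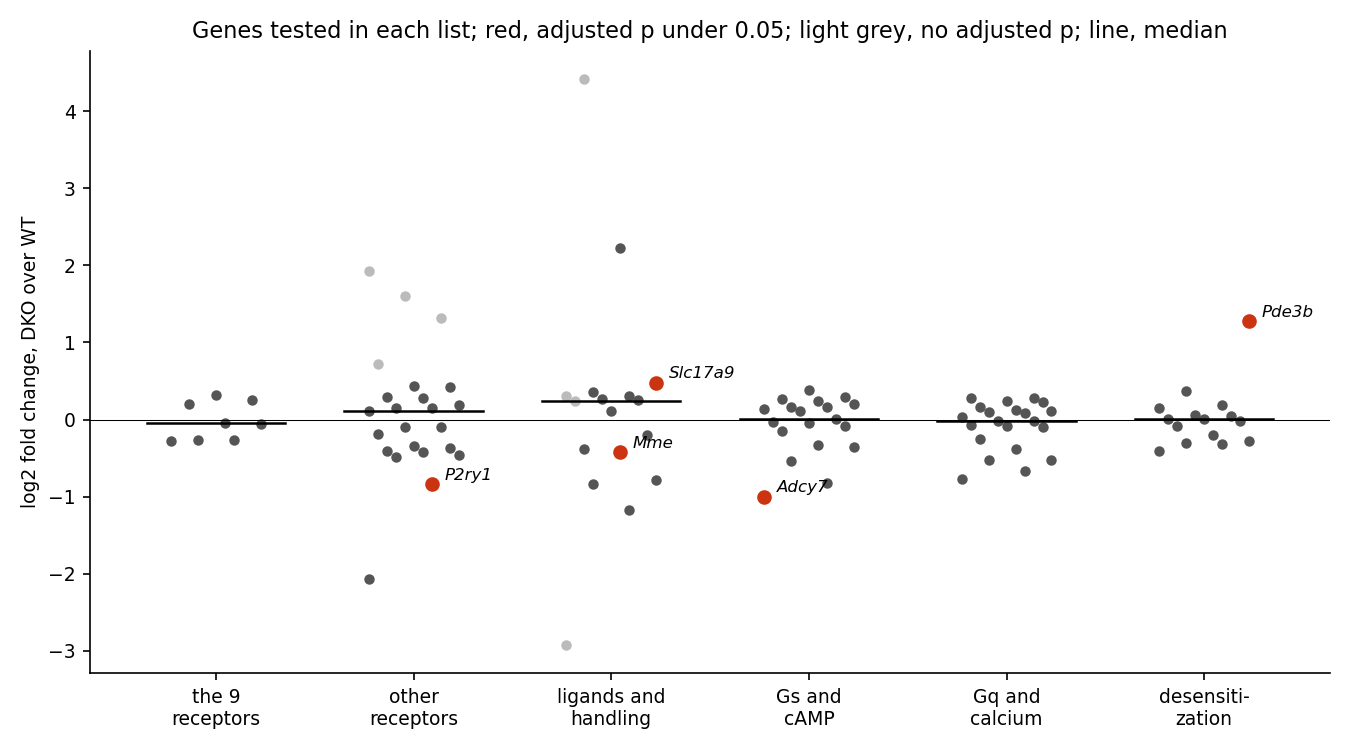
Log2 fold changes (DKO over WT) of the genes tested in each list, with 1 point per gene and a line at the median. Red points are the 5 genes called by DESeq2, P2ry1, Slc17a9, Mme, Adcy7 and Pde3b, grey points have no adjusted p-value, and the median of the 9 receptors' list is -0.05 over the 8 tested.

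Genes whose pattern over the 6 libraries was most like that of a receptor were found by the root mean square difference of centred log2 values, over 11488 genes. For Adra1a they were Acsm3 (0.0391) and Fa2h (0.0491), both lowest in DKO 4. For Adrb1 they were Kdr (0.0420) and Cacfd1 (0.0489). Gda and Inf2 were nearest to Vipr1, at 0.0604 and 0.0627, and Taf13 and Hmgn2 were nearest to P2rx4, at 0.0280 and 0.0341. For P2rx7 they were Trak1 (0.0157) and Ireb2 (0.0182). The median difference over all genes was between 0.193 and 0.287 for these receptors. These values are a description over the same 6 libraries.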

How the data were processed

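The authors made unstranded Nextera XT libraries, sequenced them on a HiSeq2500 and deposited raw counts per gene symbol. The submitters' processing notes name STAR 2.5.2a, DESeq2, edgeR and limma, and the builds GRCm38, mm10 and GRCh38, with no role. The counting tool and annotation are not given in the sources used here. A table named as TMM-scaled CPM was not used here.

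Rows with at least 10 counts over the 6 libraries (18606) were tested by DESeq2 1.42.0 in R 4.3.3, with a two-sided Wald test, median-of-ratios size factors, default filters (independent filter 0.1) and Benjamini-Hochberg adjustment over the rows that passed those filters (16050), and an adjusted p-value under 0.05 was called. DESeq2 left 2556 rows without an adjusted p-value. Normalized counts were counts divided by size factors. Intervals were the log2 fold change ± 1.96 SE. Levels per length used the union of exons in GENCODE for GRCm38, matched by symbol for all 9 receptors. Because reads were unstranded, those of overlapping genes cannot be separated. Mir8115 shares 119 exon bp with P2rx7 and had 0 counts. Vipr2 overlaps the antisense gene Gm20658 without shared exon bases. Shares were compared by two-sided exact permutation tests. The code was tested on simulated data.

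The receptors, the gene lists and the rule for named genes were chosen with earlier results of these data known. Named were the 9 receptors, list genes with an adjusted or unadjusted p-value under 0.05 or needed to describe a family, and the 2 genes nearest in pattern to each receptor with a mean of at least 50 normalized counts. Values of 1 gene of the lists are not reported here. Any other list gene or marker in the text was picked once its values were known. Alternatives were edgeR 4.0.16, limma-voom (limma 3.58.1), TMM or total counts as size factors, no filter, 10 counts in 3 libraries, the authors' filtered counts, independent or Cook's filtering off, a block for the replicate number, and fits with 1 library fewer. The fit without WT 5 and DKO 1 was added after seeing the data.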

Additional observations from a re-analysis of the deposited data

How the results depend on the processing

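The count of receptors called was 0 under every alternative except total counts as size factors, which gave 1. Adra1a, Adrb1, Vipr1 and P2rx4 kept their direction in all 17 alternatives and Vipr2 in the 16 that gave it a value. Adra1b turned to -0.061 and Plcb3 to -0.000304 with total counts as size factors, and P2ry2 to 0.15 without WT 5 and DKO 1. With 1 library left out, log2 fold changes ranged from -0.057 to 0.48 for Adra1b, from -0.12 to 0.018 for P2rx7 and from -0.14 to 0.12 for P2ry2. The cause was not tested.

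Calls in the lists were less stable. edgeR and limma-voom called 0 genes among the other receptors, the ligand genes, the Gs and cAMP path and desensitization. Total counts as size factors called 3 other receptors, 3 ligand genes, 4 genes of the Gs path, 4 of the Gq path and 2 of desensitization. Without WT 5 and DKO 1, 0 other receptors, 0 ligand genes and 0 desensitization genes were called. Independent filtering off left 0 other receptors and 1 ligand gene. Leaving out 1 library gave 0 to 1 other receptors, 0 to 4 ligand genes, 0 to 2 genes of the Gs path, 0 to 1 of the Gq path and 0 to 2 of desensitization. Over all genes, 10 were called by edgeR, 7 by limma-voom, 1472 with total counts, 180 without WT 5 and DKO 1, and 146 to 815 with 1 library left out.

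The Adra1a share differed by -0.172 percentage points (DKO minus WT), from -0.518 to 0.271 with 1 library left out, and turned without WT 4 or DKO 4. The Vipr1 share differed by 0.0656, from -0.493 to 0.508, and turned without the same libraries. The P2rx4 share differed by 3.82 percentage points, from 2.72 to 4.73, and the Adrb1 share by 9.39, from 5.99 to 12.4.

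Same-numbered libraries did not deviate together (r = -0.13, -0.02 and -0.26 for 1, 4 and 5 over 11489 genes), so the numbers are not taken as pairs. Some libraries of different number had positive r, at 0.45 for WT 5 and DKO 1, 0.44 for WT 4 and DKO 5 and 0.27 for WT 1 and DKO 4. The remaining pairs had negative r. Deviations were taken from the group mean, so for each gene they sum to 0 within a group. Positive r in some pairs therefore forces negative r in others, and this mix of signs is no evidence on pairing. A block by number does not join libraries of different number, and the cause of these r values was not tested. With the number as a replicate block 0 of the 9 receptors, 0 other receptors, 1 ligand gene and 343 genes in all were called. Depth limited Adra1b, Vipr2, P2ry2 and Tacr1, at 19 counts or fewer per library.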
